A study of Xenopus tropicalis x Xenopus laevis and Xenopus laevis and Xenopus tropicalis with 8 samples.

Results

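The nuclear-encoded respiratory chain and ATP synthase was followed as 76 gene symbols in *Xenopus* embryos, out of 13313 symbols in the deposited table. Members were taken by name alone: every symbol that begins with nduf (complex I, without the ndufaf assembly factors), uqcr (complex III) or atp5 (ATP synthase, complex V), sdha to sdhd (complex II), and cox followed by 4 to 8 (complex IV). The rule itself uses no measured value, although it was set with earlier results of these data known. The table lists transcripts of *X. laevis* and *X. tropicalis* side by side, and 68 members had *X. laevis* entries (128 transcripts), 75 had *X. tropicalis* entries (98 transcripts) and 67 had both. Only *atp5i* was named in *X. laevis* alone, and *atp5s*, *cox6b2*, *ndufb1*, *ndufb2*, *ndufb7*, *ndufc1*, *ndufc2* and *uqcr11* in *X. tropicalis* alone. Over either species the complexes held 36, 4, 8, 13 and 15 members, from I to V. The name rule also takes in *cox4nb*, which in mammals is a subunit of a membrane protein complex of the endoplasmic reticulum, and *atp5s* and *atp5sl*, which are not core subunits of the synthase. *ndufa4* is counted under complex I by its name, although its mammalian product is now placed in complex IV.

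The study used crosses of a large and a small frog species to look for genes involved in size control, with gene expression as a means to that end. Polyadenylated RNA of whole embryos was sequenced at 9 h post-fertilization, stage 9, from 4 groups with 2 libraries each, which are numbered 1 and 3 in every group. The groups were *X. laevis* embryos, viable le × ts hybrids (*X. laevis* egg, *X. tropicalis* sperm), te × ls hybrids of the reverse cross (*X. tropicalis* egg, *X. laevis* sperm), which the study describes as dying when the embryo's genome is switched on, and *X. tropicalis* embryos. No group carried a transgene or received a drug, and nothing says whether libraries of a group came from separate clutches, so p-values measure only the spread between these libraries. *X. laevis* is allotetraploid, and its table entries do not say which subgenome a transcript comes from.

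The respiratory chain passes electrons from NADH and succinate to oxygen through complexes I to IV and pumps protons across the inner mitochondrial membrane, and ATP synthase uses the returning protons to make ATP. Most of its subunits are encoded in the nucleus and imported, while a few core subunits are encoded in mitochondrial DNA. The frog egg is stocked with mitochondria and with messenger RNA during oogenesis, and early cleavage runs on these stores.

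Values are TPM, the relative abundance of a transcript in its library scaled by transcript length, summed over all transcripts of a symbol within a species. Egg-species entries held 99.0% to 99.9% of the TPM in all 8 libraries. The 10 egg RNAs used as stage markers summed to 6122 and 6581 TPM in *X. laevis* and 9901 and 9104 TPM in *X. tropicalis* embryos. Most of this was *ccnb1*, at 4002 and 4303 TPM and at 6946 and 6142 TPM. RNAs of later tissues, set in advance as near 0, were not all so. The 4 measured in *X. laevis* summed to 367.5 and 367.5 TPM, nearly all *krt5*. The 5 in *X. tropicalis* summed to 67.5 and 148 TPM, mostly *ins*. The 10 measured *X. tropicalis* RNAs of the starting embryo genome (such as *sia1*, *mix1* and *gsc*) were lower in te × ls than in *X. tropicalis* embryos in 10 of 10 cases (median log2 difference −1.40). Of the 8 measured in *X. laevis*, 6 were lower and 2 higher in le × ts than in *X. laevis* embryos (median −0.91). None of these was called, and their part in the values below was not tested. TPM keeps no number of reads, so the depth is unknown and no counting intervals are given. In whole embryos a smaller share of cells with a transcript and less of it per cell cannot be told apart.

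All members were above 0 in the embryos of their own species, and their levels spread over more than 2 orders of magnitude. Together they held 0.746% and 0.859% of egg-species TPM in the *X. laevis* libraries (0.803% ± 0.080, SD, n = 2) and 1.17% and 1.32% in the *X. tropicalis* libraries (1.25% ± 0.11, SD, n = 2). They held 0.681% and 0.982% in le × ts and 1.21% and 1.44% in te × ls. The *X. laevis* and *X. tropicalis* values did not overlap, but an exact permutation of 2 against 2 libraries cannot give a two-sided p below 0.333. The shares were also taken with only the symbols named in both species entered in both sums. They were then 0.805% and 0.933% in *X. laevis* and 1.15% and 1.32% in *X. tropicalis* embryos. Each species was measured on its own transcript models, so species and models cannot be told apart in these shares.

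**Figure D1:**
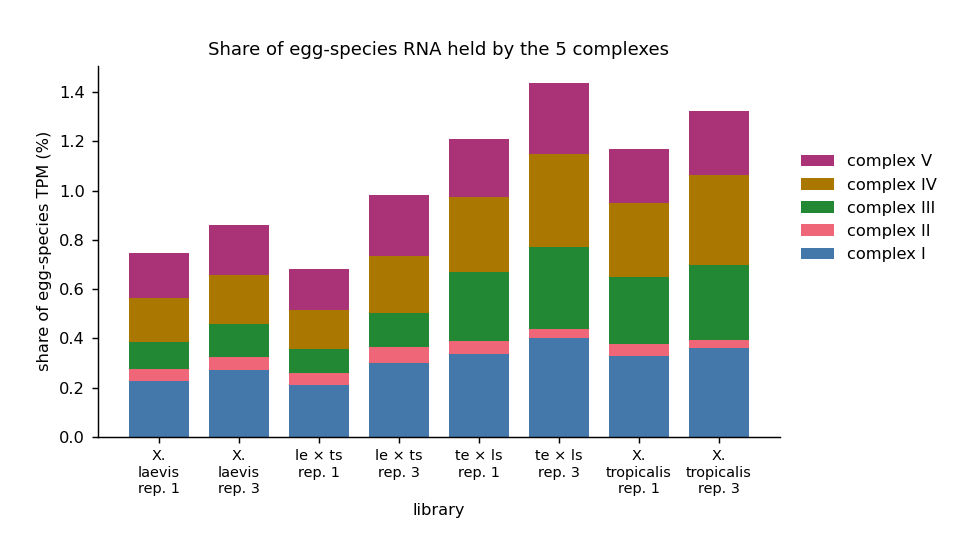
Share of egg-species TPM (y axis, percent) held by the members of complexes I to V (stacked bars) in each of the 8 libraries (x axis). The bars reach 0.681% to 0.982% where the egg was from *X. laevis* and 1.17% to 1.44% where it was from *X. tropicalis*. Complex III takes a wider band in the latter, which includes *uqcr11*, a symbol without an *X. laevis* entry.

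The make-up of this RNA, measured in each species on its own transcript models, differed between the species. Here too, species and models cannot be told apart. In *X. laevis* embryos complex I held 30.8% of the members' TPM, complex II 6.56%, complex III 15.1%, complex IV 23.8% and complex V 23.8%. In *X. tropicalis* embryos the same shares were 27.6%, 3.32%, 23.3%, 26.6% and 19.3%. Complex III thus held a larger share and complex II a smaller one in *X. tropicalis*. Of the complex III share, *uqcr11*, which has no *X. laevis* entry, gave 795 and 803 of the members' 11665 and 13198 TPM. Shares by complex over only the symbols named in both species were not computed, so much of the complex III difference may rest on this symbol. The 5 most abundant members held 35.1% of the members' TPM in *X. laevis* and 40.2% in *X. tropicalis*.

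Within complex I, which takes electrons from NADH, the most abundant members in *X. laevis* embryos were *ndufab1* and *ndufa4*. *ndufab1*, which encodes the mitochondrial acyl carrier protein, was at 385 and 287 TPM. *ndufa4* was at 183 and 484 TPM, so the range of the second spans that of the first. The lowest mean was that of *ndufa7*, an accessory subunit, at 1.97 and 2.98 TPM, which overlapped *ndufb3* at 2.08 and 3.47 TPM. In *X. tropicalis* embryos the order was led by *ndufs8*, an iron-sulfur core subunit, at 500.5 and 583 TPM. It was followed by *ndufa4* at 230.1 and 298 TPM, without overlap. The lowest mean there was that of the accessory subunit *ndufb8*, at 1.49 and 1.44 TPM, which overlapped *ndufc2* at 2.22 and 1.001 TPM.

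Complex II, succinate dehydrogenase, is also an enzyme of the Krebs cycle. The membrane anchor *sdhd* led in both species, at 270.2 and 358 TPM in *X. laevis* and 338 and 195 TPM in *X. tropicalis* embryos. The flavoprotein *sdha* was at 150.4 and 143 TPM in *X. laevis* and 87.8 and 70.8 TPM in *X. tropicalis*. The iron-sulfur subunit *sdhb* was at 48.7 and 45.0 TPM in *X. laevis* and, as the lowest of the complex, at 16.6 and 22.01 TPM in *X. tropicalis*. The other anchor, *sdhc*, was the lowest in *X. laevis* with 18.9 and 14.03 TPM, and stood at 34.8 and 48.5 TPM in *X. tropicalis*. The last places of *sdhb* and *sdhc* were therefore exchanged between the species, without overlap within either.

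Complex III was led in both species by *uqcrfs1*, the Rieske iron-sulfur protein, at 713 and 821 TPM in *X. laevis* and 1173 and 1400.4 TPM in *X. tropicalis* embryos. The next in *X. laevis* was *uqcrh*, the hinge protein, at 216 and 265 TPM. The lowest mean was that of the small subunit *uqcrq* at 8.26 and 9.80 TPM, which overlapped *uqcr10* at 4.71 and 17.3 TPM. In *X. tropicalis* the next was *uqcr11*, another small subunit, at 795 and 803 TPM, and the lowest was the core protein *uqcrc2* at 21.7 and 22.9 TPM. Members of a single complex thus ranged 85.0-fold in *X. laevis* and 57.6-fold in *X. tropicalis* by group mean.

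Complex IV, cytochrome c oxidase, had different leading members in the 2 species. In *X. laevis* embryos *cox6a1* was at 635 and 679 TPM and *cox5a* at 236 and 375 TPM. The lowest mean there was that of *cox5b* at 6.66 and 18.5 TPM, which overlapped *cox7a2* at 10.6 and 17.7 TPM. In *X. tropicalis* embryos *cox7a2*, the isoform of non-muscle tissues in mammals, was at 1239.5 and 1622 TPM, the highest mean of all members, followed by *cox5b* at 389 and 529.5 TPM. The lowest there was *cox6a1*, at 4.90 and 10.4 TPM. By mean, the member that led in *X. laevis* was thus last in *X. tropicalis*, and the members that led in *X. tropicalis* were the lowest in *X. laevis*, where their order was not resolved.

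ATP synthase was led by the same members in both species. *atp5b*, the catalytic beta subunit, was at 594 and 825 TPM in *X. laevis* and 726 and 838 TPM in *X. tropicalis*, ahead of the central stalk subunit *atp5c1* at 315 and 287 TPM and at 654 and 738 TPM. The lowest in both was *atp5sl*, at 5.57 and 6.22 TPM and at 9.30 and 8.73 TPM. Across all complexes, *uqcrfs1* and *atp5b* overlapped at the top of the *X. laevis* order, *cox7a2* and *uqcrfs1* overlapped at the top of the *X. tropicalis* order, and so did *uqcr11* and *atp5b* below them.

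**Figure D2:**
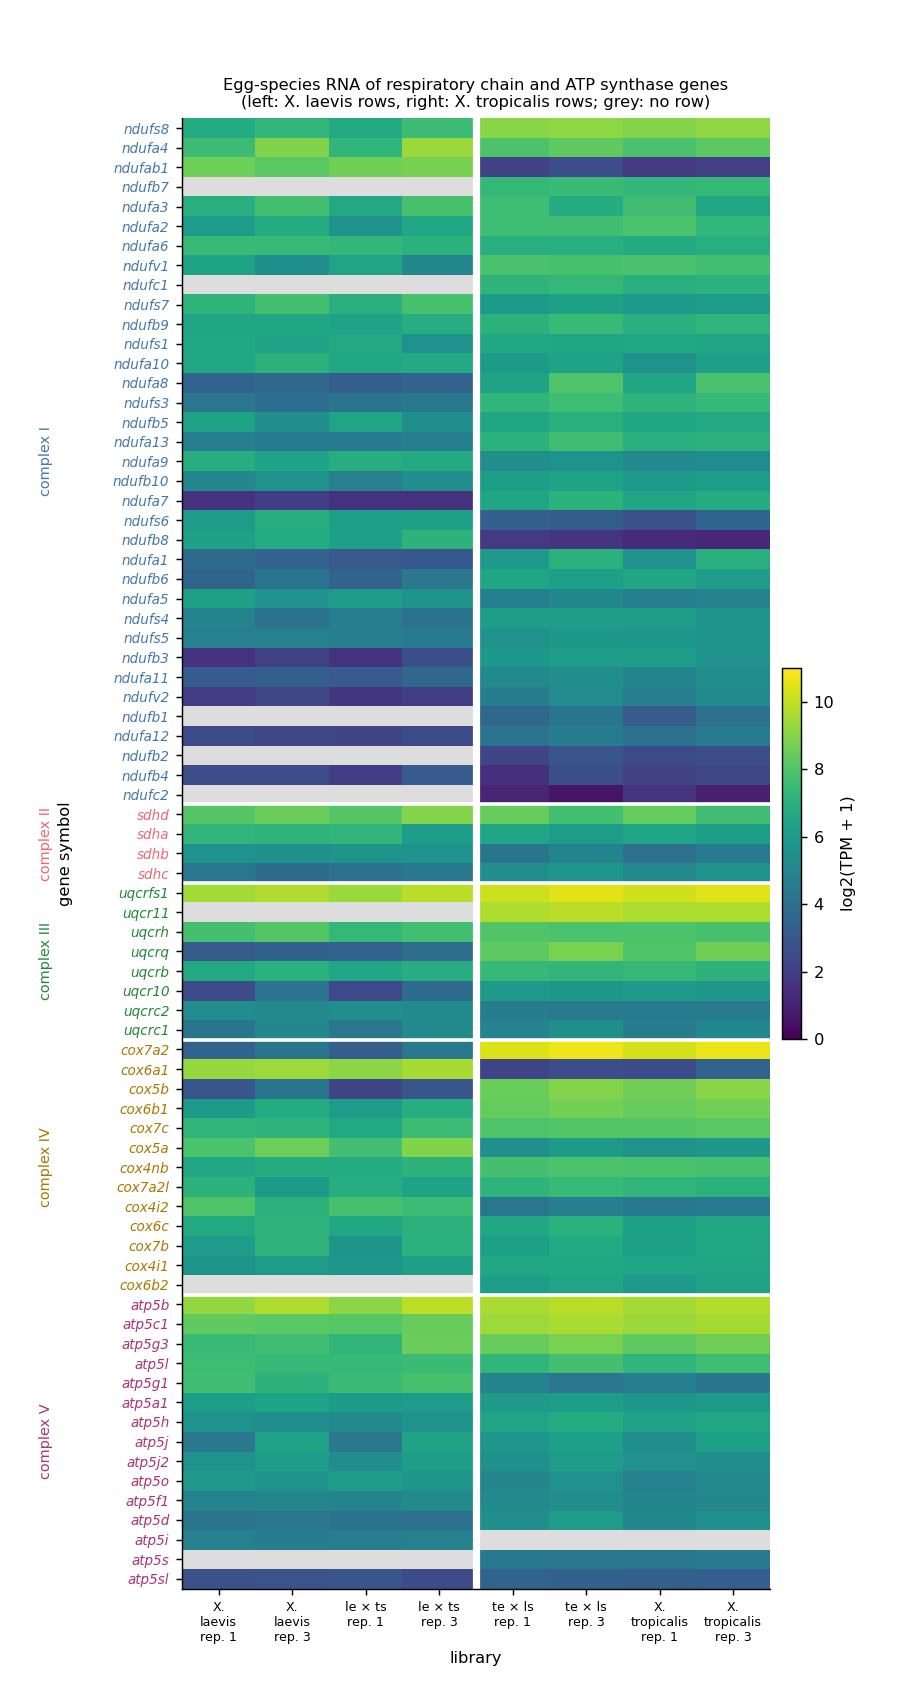
Level of the members (y axis, ordered by complex and by level, 1 member of complex I left out) in each library (x axis) as log2(TPM + 1) in colour, with *X. laevis* entries in the 4 left columns, *X. tropicalis* entries in the 4 right columns, and grey where a species has no entry. The pure and hybrid columns of the same egg species look alike, whereas single genes such as *cox7a2*, *cox6a1* and *ndufab1* change colour between the left and right columns.

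To ask whether the egg species differ in single subunits, *X. laevis* embryos were compared with *X. tropicalis* embryos over the 67 members named in both. Of these, 23 were lower and 11 were higher in *X. laevis*, with means up to 102-fold lower (*cox7a2*) and 112-fold higher (*ndufab1*), and the differences ran in opposite directions within the same complex. For this comparison TPM were rescaled so that the symbols named in both species have the same total in every library, and a gene was called with limma at a Benjamini-Hochberg adjusted p under 0.05 and more than 2-fold. Over all 9517 symbols tested, 43.0% were called, 21.3% lower and 21.7% higher in *X. laevis*. Among the members 50.7% were called, 34.3% lower and 16.4% higher, and their median log2 difference was −0.55 (0.01 over all symbols). The share called was thus not far from that of all symbols, with more of it on the lower side. Each species was measured on its own transcript models, so species and models cannot be told apart, and a shared symbol does not show that the transcripts are orthologous or complete.

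The largest difference on the lower side was that of *cox7a2*, with rescaled values of 11.5 and 19.4 TPM in *X. laevis* and 1357 and 1783 TPM in *X. tropicalis*. Its log2 difference was −6.61 (SE 0.27, limma adjusted p = 5.3e-05). *cox5b*, a structural subunit of complex IV, was at 7.25 and 20.3 against 426 and 582 TPM (log2 difference −5.24, SE 0.44, adjusted p = 0.00022). Complex IV *cox6b1* followed the same direction with 69.2 and 119.6 against 385 and 437 TPM, as did *cox4nb*. In complex III, *uqcrq* was at 8.98 and 10.7 against 279 and 429 TPM (log2 difference −5.01, SE 0.27, adjusted p = 7.4e-05), and *uqcr10* at 5.12 and 18.9 against 63.7 and 56.7 TPM.

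Complex I gave 14 of the 23 lower calls. Its accessory subunits *ndufa7* and *ndufb3* were at 2.14 and 3.26 and at 2.27 and 3.79 TPM in *X. laevis*, against 96.4 and 120.9 and 75.7 and 51.2 TPM in *X. tropicalis*. Their log2 differences were −4.90 (SE 0.32, adjusted p = 0.0001) and −4.00 (SE 0.36, adjusted p = 0.00029). *ndufa8* was at 11.6 and 13.03 against 96.2 and 251 TPM, and *ndufa1* at 15.2 and 11.001 against 50.5 and 132 TPM; in both, the *X. tropicalis* libraries differed more than 2-fold between themselves. The core subunits *ndufs3* (21.0 and 16.1 against 154 and 179 TPM) and *ndufv2* (3.28 and 4.50 against 27.9 and 40.2 TPM) were lower as well. So were *ndufs8* and the NADH-binding *ndufv1*, by −2.07 and −1.83 on the log2 scale, while the core subunit *ndufs1* (101 and 87.99 against 103 and 93.2 TPM) overlapped. The 95% interval of its difference was −0.48 to 0.37 on the log2 scale.

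On the higher side, *ndufab1* was at 418 and 314 TPM in *X. laevis* and at 2.91 and 3.62 TPM in *X. tropicalis*. Its log2 difference was 6.42 (SE 0.26, limma adjusted p = 5.3e-05). *cox6a1* was at 690.2 and 742 against 5.37 and 11.5 TPM (log2 difference 6.33, SE 0.32, adjusted p = 6.8e-05), and *ndufb8* at 83.0 and 123 against 1.64 and 1.58 TPM (log2 difference 5.29, SE 0.33, adjusted p = 9.5e-05). These 3 were each higher by 64.2-fold or more by group mean. *ndufs6*, an accessory subunit, was at 71.0 and 124.8 against 6.25 and 11.6 TPM.

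The other higher calls were smaller and came from all complexes but III. *atp5g1*, which encodes the same ring subunit c as *atp5g3*, was at 217 and 151 against 28.4 and 20.0 TPM (log2 difference 2.87, SE 0.27, adjusted p = 0.00033). *atp5g3* was at 184 and 212 against 337 and 435 TPM, in the opposite direction, and stayed under the 2-fold limit (log2 difference −0.95, SE 0.18, adjusted p = 0.0043). *cox5a* was at 256 and 409.9 against 54.4 and 62.9 TPM. The core subunit *ndufs7* was at 154 and 234 against 65.03 and 73.1 TPM, and the accessory subunit *ndufa9* at 124.9 and 91.2 against 39.01 and 43.98 TPM. Their log2 differences were 1.45 and 1.34, and those of *sdhb* and *ndufa5* were 1.24 and 1.12. The flavoprotein partner of *sdhb*, *sdha*, was at 164 and 157 against 96.1 and 77.8 TPM and was not called, with a log2 difference of 0.88.

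The complex IV isoforms *cox4i1* and *cox4i2* were not in the same proportion in the 2 species. *cox4i1*, the general isoform of subunit 4 in mammals, was at 55.3 and 71.3 against 98.3 and 92.5 TPM and was not called (log2 difference −0.60, SE 0.20, adjusted p = 0.044, under 2-fold). *cox4i2*, the isoform known from mammalian lung and low oxygen, was at 273 and 147 against 23.0 and 24.97 TPM and was called (log2 difference 3.01, SE 0.31, adjusted p = 0.00044). In *X. laevis* both libraries thus had more *cox4i2* than *cox4i1*, and in *X. tropicalis* both had less. *cox6b2*, the testis isoform of mammals, was entered for *X. tropicalis* alone, at 58.8 and 79.9 deposited TPM beside 352 and 398 for *cox6b1*. No member of either species carried the name of the muscle isoforms *cox6a2* or *cox7a1*.

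**Figure D3:**
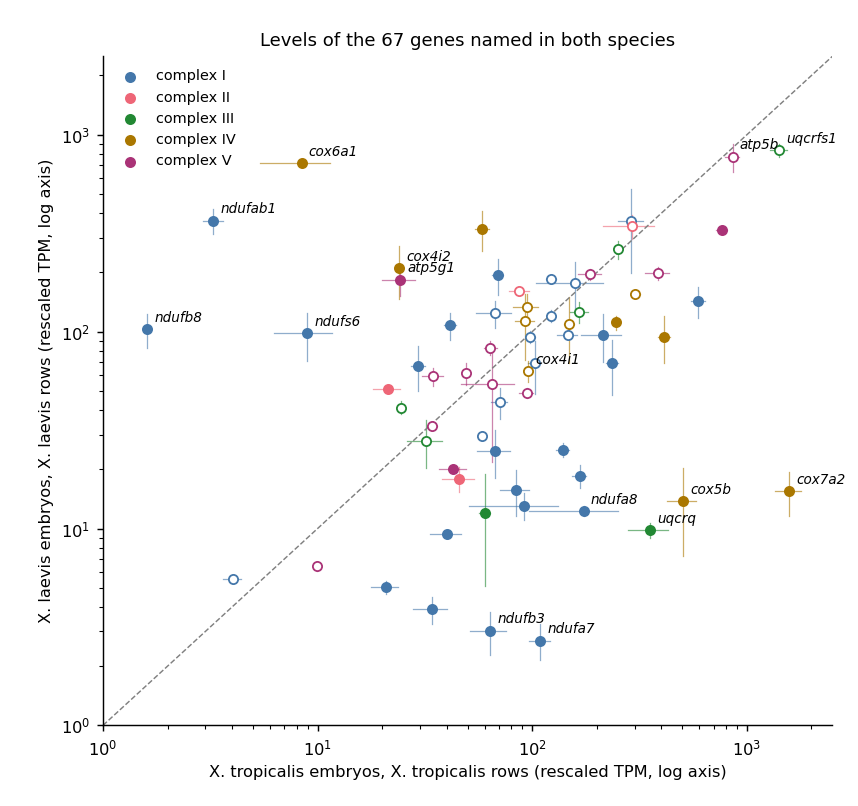
Mean rescaled TPM of the 67 members named in both species in *X. laevis* (y axis) and *X. tropicalis* embryos (x axis), both on log axes, with lines joining the 2 libraries of a species and the dashed line marking equal levels. Filled points were called and open points were not; *ndufab1*, *cox6a1* and *ndufb8* lie far above the line, and *cox7a2*, *cox5b* and *ndufa7* far below it.

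By complex, the calls higher and lower in *X. laevis* were 6 and 14 of 31 in complex I, 1 and 1 of 4 in II, 0 and 2 of 7 in III, 3 and 4 of 12 in IV, and 1 and 2 of 13 in V. A further 12 members had an adjusted p under 0.05 but differed by 2-fold or less, and 21 had a larger p. Over the 67 members the levels of the 2 species had a Spearman correlation of 0.27, and over all 9517 symbols one of 0.73. These are correlations across genes, which share their libraries and transcript models and are not independent. A correlation also depends on the spread of levels in its set, and the sets were not matched for this. The median absolute log2 difference was 1.05 over the members and 0.88 over all symbols. More than 4-fold differences were seen in 31.3% of the members and 19.3% of all symbols. Eggs of the same species were also measured in the hybrids, although nothing says that they came from other females. With the le × ts and te × ls libraries in place of the pure ones, 35 members were called, of which 32 were the same genes in the same direction. Over all symbols, 3784 of 9467 were called in that setting. The transcript models were the same, so this overlap cannot tell species and models apart. With only the most abundant transcript of each symbol, 31 members were called, beside 4124 of all 9543 symbols. Of the 31, 28 were shared, so that *atp5d*, *cox4nb*, *ndufa2*, *ndufs7*, *sdhb* and *sdhc* were not called.

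Related lists were counted in the same way, beside 21.7% higher and 21.3% lower of all symbols, and no test compared the lists. Of 25 assembly factors of the complexes tested, 11 were higher and 4 lower in *X. laevis* (median log2 difference 0.77). Of 56 proteins of the mitochondrial ribosome 13 were higher and 13 lower, and of 18 Krebs cycle enzymes 1 was higher and 2 lower. Mitochondrial import gave 3 higher and 5 lower of 16, glycolysis 6 and 5 of 16, and the regulators of mitochondrial biogenesis 3 and 2 of 12. *cycs* (cytochrome c) and *cyc1* (cytochrome c1), which lie outside the name rule, were not called. The counts and shares of complex III thus do not include *cyc1*. *cycs* was at 892 and 1011 deposited TPM in *X. laevis* and 799 and 787 in *X. tropicalis* embryos. *cyc1* was at 89.9 and 61.6 against 132.9 and 108.5 deposited TPM, in the opposite direction, and neither gene overlapped between the species.

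Between le × ts and *X. laevis* embryos, which share the egg species, none of the members was called. The *X. laevis* entries differed little, with log2 differences from −1.01 to 0.38 and a median of 0.0069 over 68 members, of which 35 were higher and 33 lower in le × ts. Over all 11061 *X. laevis* entries tested the median was 0.011. Over both species 11526 entries were tested with limma, of which 0.0% were called and 165 had an unadjusted p under 0.05; of the 72 members tested, which include 4 *X. tropicalis* entries, 0 were called and 0 had an unadjusted p under 0.05. No *X. tropicalis* entry was called either, although their log2 differences reached 5.77 (lowest limma adjusted p = 0.16). The absence of calls in this comparison therefore says little about the members. With edgeR at the same cutoffs, the study reported *X. tropicalis* genes as more abundant in le × ts. The members' median moved when 1 library was left out, which leaves the numbers 1 and 3 unbalanced. It was −0.11 without *X. laevis* replicate 1, −0.24 without le × ts replicate 3 and 0.18 without le × ts replicate 1. Between libraries of the same number the median was −0.14 for number 1 and 0.13 for number 3.

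A few members did not overlap between the groups. Both le × ts libraries were lower than both *X. laevis* libraries for 9 of 68 members, or 13.2%, against 7.95% of all *X. laevis* entries. Both were higher for 2 members, or 2.94%, against 10.5% of all. The 9 lower were *ndufa1*, *ndufa6*, *ndufa8*, *ndufs5*, *ndufv2*, *uqcrh*, *cox5b*, *atp5a1* and *atp5d*. The largest of these was *cox5b*, with 6.66 and 18.5 TPM in *X. laevis* and 3.85 and 6.66 TPM in le × ts, so that the groups all but touch. Its log2 difference was −1.01 (SE 0.58, limma adjusted p = 1.0). *ndufa1*, an accessory subunit of complex I, was at 13.9 and 10.1 TPM against 7.36 and 7.26 in le × ts (log2 difference −0.63, 95% interval −1.55 to 0.29). *uqcrh* was at 216 and 265 TPM against 158 and 203 in le × ts (log2 difference −0.41, 95% interval −1.04 to 0.21). The 2 higher were *uqcrq*, with 8.26 and 9.80 against 10.1 and 14.3 TPM in le × ts, and *ndufab1*, with 385 and 287 against 389 and 431 TPM.

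In te × ls, no member was called against *X. tropicalis* embryos either, but most of the small differences pointed upward. Of the 75 *X. tropicalis* members, 67 were higher in te × ls by group mean of log2 values and 8 lower, and the median log2 difference was 0.11 (−0.012 over all 10775 *X. tropicalis* entries, of which 44.8% were higher). Complex III was higher in 8 of 8 members and complex V in 14 of 14, complex I in 32 of 36, complex IV in 10 of 13 and complex II in 3 of 4. These counts are a description of single small differences that did not pass the test. Over both species limma called 0.569% of 11257 entries tested, all of them *X. laevis* entries and higher in te × ls; of the 79 members tested, which include 4 *X. laevis* entries, 0 were called and 2 had an unadjusted p under 0.05. Both of those were *X. laevis* entries.

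The size of this difference moved with the libraries used. Leaving out 1 library also leaves the numbers 1 and 3 unbalanced, and most members were higher in replicate 3 in every group. Without te × ls replicate 3 the median was 0.0069 with 41 of 75 members higher, and without *X. tropicalis* replicate 1 it was 0.038 with 44 higher. Without te × ls replicate 1 it was 0.28 and without *X. tropicalis* replicate 3 it was 0.21. Between the libraries numbered 1, 50 of 75 members were higher in te × ls (median 0.081), and between those numbered 3, 64 were (median 0.15). In both, 44 members (58.7%) were higher, against 25.1% of all *X. tropicalis* entries.

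Both te × ls libraries were above both *X. tropicalis* libraries for 10 members, or 13.3%, against 6.96% of all *X. tropicalis* entries, and below for 0 members, against 10.2% of all. The largest of the 10 was *ndufb8*, with 1.49 and 1.44 TPM in *X. tropicalis* and 2.53 and 2.20 TPM in te × ls (log2 difference 0.45, 95% interval −0.16 to 1.05). *ndufab1* was at 2.66 and 3.29 against 3.44 and 5.04 TPM in te × ls. Both are among the lowest members of *X. tropicalis*, near the level of the added 1 TPM. Among abundant members, *ndufc1*, an accessory subunit of complex I, was at 117 and 130.2 against 139.9 and 159 TPM in te × ls (log2 difference 0.27, 95% interval −0.05 to 0.59). *ndufb10*, another accessory subunit, was at 58.7 and 69.7 against 71.6 and 82.4 TPM, and *atp5f1*, the stalk subunit b, at 29.8 and 32.6 against 36.9 and 42.6 TPM (log2 difference 0.34, 95% interval −0.08 to 0.75). The other 5 were *ndufa6*, *ndufa9*, *uqcr11*, *cox4i1* and *atp5sl*, with log2 differences from 0.09 to 0.24.

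**Figure D4:**
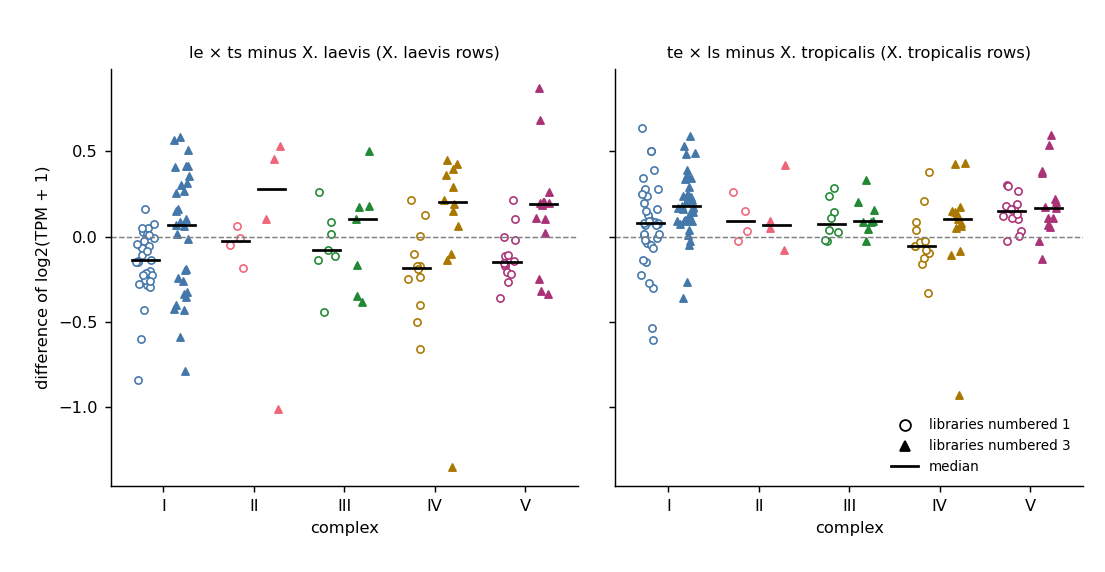
Difference of log2(TPM + 1) between hybrid and pure embryos of the same egg species (y axis) for each member, by complex (x axis), for the libraries numbered 1 (open circles) and 3 (filled triangles), with black lines at the medians. In le × ts the 2 numbers lie on either side of 0, at medians of −0.14 and 0.13 over all members, and in te × ls most points lie above 0 for both numbers.

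The difference between the hybrid effects was tested over the symbols named in both species. Of 67 members, 0 had an adjusted p under 0.05 (limma) and 0 an unadjusted p under 0.05, and the median of the le × ts effect minus the te × ls effect was −0.14 (0.021 over all symbols). The related lists gave 0 calls in either hybrid. In te × ls their medians were 0.070 for assembly factors (23 of 31 higher), 0.064 for the Krebs cycle (14 of 18), 0.049 for the mitochondrial ribosome (46 of 64), 0.0016 for import, 0.045 for glycolysis and 0.032 for the regulators. In le × ts they were −0.12 (7 of 27 higher), 0.0084, −0.046, 0.0082, −0.060 and 0.074, in the same order.

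The median differences between libraries of a group, 0.17 to 0.31, were set beside those between same-numbered libraries of groups with the same egg. The latter were −0.14 and 0.13 for le × ts and 0.081 and 0.15 for te × ls. The former were larger in size, by little at their lower end. Replicate 3 was higher than replicate 1 for 41 of 68 members in *X. laevis* (median log2 difference 0.17, −0.054 over all entries at 1 TPM or more), for 50 of 68 in le × ts (0.31 against −0.16), for 59 of 74 in te × ls (0.30 against −0.047) and for 54 of 75 in *X. tropicalis* (0.19 against −0.041). The widest gaps in *X. laevis* were those of *atp5j*, the coupling factor of ATP synthase, at 20.1 and 79.0 TPM, of *uqcr10* at 4.71 and 17.3 TPM, and of *cox5b* and *ndufa4*. *cox7a2l*, which in mammals takes part in supercomplexes of the chain, went the other way with 137 and 63.1 TPM. In le × ts *atp5j* was at 19.8 and 80.3 TPM and *cox7a2l* at 116 and 83.4 TPM, so the same libraries by number were high and low. In *X. tropicalis* the widest were *ndufa8* at 87.8 and 229 TPM, *ndufa1* at 46.1 and 119.8 TPM, *ndufc2* at 2.22 and 1.001 TPM, *cox6a1*, and *ndufb1* at 8.001 and 17.0 TPM. In te × ls *ndufa8* was at 79.2 and 253 TPM and *ndufa1* at 60.8 and 128 TPM.

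RNA of the sperm species was then examined in the hybrids, taking as detected an entry at 1 TPM or more in both hybrid libraries and under 1 TPM in both libraries of the pure egg species. In le × ts, 1 of 75 *X. tropicalis* members met this, beside 1.27% of all *X. tropicalis* entries, and with the groups exchanged 0 did. It was *atp5b*, at 1.03 and 1.70 TPM in le × ts and 0.835 and 0.595 in *X. laevis* embryos, whose libraries hold no *X. tropicalis* RNA by design. This gap is small beside the values of *X. tropicalis* embryos, 726 and 838 TPM. The count moved to 5 without le × ts replicate 1, beside 2.37% of all *X. tropicalis* entries, and to 4 without replicate 3, beside 3.09%.

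In te × ls, 2 of 68 *X. laevis* members met it, beside 2.74% of all *X. laevis* entries, and with the groups exchanged 0 did. *cox7c*, a small subunit of complex IV, was at 1.64 and 2.19 TPM in te × ls and listed at 0 in both *X. tropicalis* libraries, with a limma adjusted p of 0.14. *cox6a1* was at 1.54 and 1.49 TPM against 0.418 and 0.739. In *X. laevis* embryos the same entries were at 146 and 139 TPM and at 635 and 679 TPM. The count was 4 without te × ls replicate 1, beside 3.84% of all *X. laevis* entries.

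Summed over the members, RNA of the sperm species was low in the hybrids but above the level in embryos that lack it, without overlap in either cross. *X. tropicalis* members summed to 26.2 and 20.8 TPM in le × ts and 11.5 and 17.1 TPM in *X. laevis* embryos, while the 10 *X. tropicalis* RNAs of the starting genome summed to 260.4 and 123 TPM in le × ts against 0.377 and 0.598. As a share of the sum in *X. tropicalis* embryos, the members were at 0.211% and 0.167% in le × ts, where all *X. tropicalis* entries were at 0.679% and 1.02%. In *X. laevis* embryos, which hold no *X. tropicalis* RNA, the members were at 0.0928% and 0.138%, and all *X. tropicalis* entries at 0.294% and 0.332%. *X. laevis* members summed to 29.7 and 25.7 TPM in te × ls and 12.9 and 12.7 TPM in *X. tropicalis* embryos, or 0.371% and 0.322% of their *X. laevis* sum against 0.161% and 0.158%. All *X. laevis* entries were at 0.356% and 0.430% in te × ls, against 0.124% and 0.231% in *X. tropicalis* embryos. In the hybrids the members thus lay below all entries in le × ts and near them in te × ls, with part of both at the level of embryos that lack this RNA. Of the *X. tropicalis* members 28 of 75, and of the *X. laevis* members 21 of 68, were listed at 0 in all 4 libraries of their cross. Both te × ls libraries were above both *X. tropicalis* libraries for 22 of 68 members, beside 24.5% of all *X. laevis* entries, and below for 0. Both le × ts libraries were above both *X. laevis* libraries for 10 of 75, beside 12.2% of all *X. tropicalis* entries, and below for 4. The share below was not computed over all entries.

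The sperm-species members of the highest mean in each cross were also seen in the pure egg species. *X. laevis* *atp5b* was at 10.3 and 10.8 TPM in te × ls and already at 6.93 and 7.30 TPM in *X. tropicalis* embryos. *X. tropicalis* *uqcrfs1* was at 5.49 and 3.498 TPM in le × ts and 2.41 and 3.56 in *X. laevis* embryos, which overlap, and *uqcr11* at 2.71 and 4.03 against 1.19 and 2.07 TPM, which do not. These genes were also among the most abundant members in embryos of their own species. *X. laevis* *ndufa8* was at 4.97 TPM in te × ls replicate 1 and 5.02 TPM in *X. tropicalis* replicate 1, and at 0.204 and 0 TPM in the replicates numbered 3. For that entry the value followed the library number and not the presence of *X. laevis* sperm. Next by mean in te × ls came *X. laevis* *atp5i*, subunit e of the synthase, at 0.347 and 3.66 TPM, and *cox7c*, neither above 0 in any *X. tropicalis* library. The values of *atp5i* were far apart, and it did not reach 1 TPM in both.

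**Figure D5:**
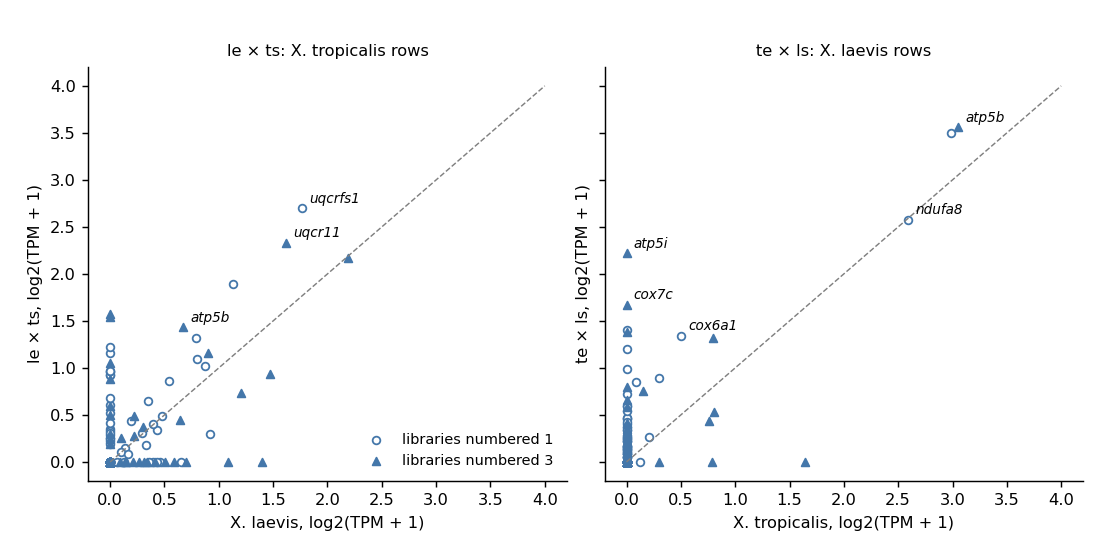
Sperm-species members in le × ts (left, *X. tropicalis* entries) and te × ls (right, *X. laevis* entries) on the y axis against the pure embryos of the egg species on the x axis, both as log2(TPM + 1), for libraries numbered 1 (open circles) and 3 (filled triangles). The dashed line marks equal levels; nearly all points lie at the lower left, and the highest, *X. laevis* *atp5b* at 10.3 and 10.8 TPM in te × ls, is also the highest in *X. tropicalis* embryos.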

How the data were processed

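The authors mapped paired-end reads of polyadenylated RNA to the pooled transcripts of both frog species with Bowtie, allowing no mismatch and discarding reads with more than 1 target, so reads identical between species or between *X. laevis* subgenome copies are lost. The submitters' processing notes name BWA 0.7.10 instead. The authors deposited TPM from RSEM, 1 value per transcript and library, and used edgeR for their own test, which needs reads. Of these columns, all 8 were used. Here TPM were summed by symbol within species, with unnamed transcripts kept singly.

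Groups were compared by limma 3.58.1 under R 4.3.3 (lmFit, eBayes with a mean trend) on log2(TPM + 1), without a block, over the whole table. Entries at 1 TPM or more in at least 2 of the 4 fitted libraries were kept. Genes were called at a Benjamini-Hochberg adjusted p under 0.05 and an absolute log2 difference above 1, the cutoffs of the study. Fold changes on the log2(TPM + 1) scale understate the changes of low genes. Between species, TPM were rescaled over the symbols named in both.

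The members, the related lists and the tests were chosen with earlier results of these data known. Values in every library are given for the 2 highest and the lowest member of each complex and species, all sdh genes, up to 10 called members per direction, up to 5 members without overlap per hybrid, members detected in a hybrid alone, isoform pairs, and up to 5 members with the widest ratio between replicates. Other members named were chosen after their values were seen. Alternatives were other pseudocounts, filters, summing, scaling, a block, a joint fit and leaving out libraries. The values of 1 member are not reported here singly, although it stays in all counts and sums. Transcript lengths, positions and sequences were not used here.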

Additional observations from a re-analysis of the deposited data

How the results depend on the processing

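In te × ls the count of members called rose from 0 to 1 with a pseudocount of 0.1 TPM and to 1 with a replicate block, in each case *X. laevis* *cox7c* (limma adjusted p = 0.049 and 0.024). In le × ts it stayed at 0 under every alternative run, the replicate block included. With that block, 28 of 79 members had an unadjusted limma p under 0.05 in te × ls, beside 1595 of all 11257 entries. Of these members, *X. tropicalis* *cox5b*, *cox6a1* and *cox7c* were lower in te × ls and all others were higher. *X. tropicalis* *cox6c* and *ndufc1* had adjusted p of 0.011 and 0.031 in that blocked limma fit. Both were higher by less than 2-fold (log2 differences 0.40 and 0.27) and so were not called. In le × ts, 3 of 72 members had an unadjusted limma p under 0.05 with the block, beside 578 of all 11526 entries. Over all entries, te × ls gave 64 calls, 150 with a pseudocount of 0.1 TPM, 388 with the replicate block, 137 with all groups in 1 fit, and 0 without a filter, with a filter at 5 TPM, per transcript or rescaled to the egg species. It gave 0 without te × ls replicate 1 or 3, and 66 and 72 without *X. tropicalis* replicate 1 and 3. In le × ts it gave 0, 162 with the replicate block, 11 with all groups in 1 fit and up to 22 with a library left out. Libraries of the same number deviated together in the egg species (correlation 0.78 over 11061 entries of *X. laevis* and le × ts, 0.86 over 10775 of *X. tropicalis* and te × ls), but with 2 numbers and no label for them, they were not taken as pairs. With a library left out, the members' median log2 difference ran from −0.24 to 0.18 in le × ts and from 0.0069 to 0.28 in te × ls. Between the species, the alternatives with all libraries kept called 31 to 35 members. Beside them, 3784 to 4173 of all symbols were called, of 9467 to 10151 tested. The replicate block gave the same 34 members, beside 4173 of all 9517 symbols. With a library left out, the members' median log2 difference between the species ran from −0.59 to −0.41. Detection in le × ts alone gave 2 of 75 members at 0.5 TPM, beside 1.99% of all *X. tropicalis* entries, and 1 member with the groups exchanged. It gave 0 members at 5 TPM, beside 0.405% of all entries, and 4 to 5 at 1 TPM with a library left out. Detection in te × ls alone gave 2 of 68 members at 0.5 TPM, beside 4.37% of all *X. laevis* entries, and 0 with the groups exchanged. It gave 0 members at 5 TPM, beside 0.592% of all entries, and 3 to 4 at 1 TPM with a library left out. Without the 5 most abundant members, the share of TPM fell to 0.521% in *X. laevis*, 0.530% in le × ts, 0.798% in te × ls and 0.746% in *X. tropicalis*. Of 90 alternative values, 74 kept their direction, call or range, 14 moved and 2 became stronger. The range was wide for the medians of the hybrids. The 74 include the te × ls median of 0.0069 without te × ls replicate 3, beside 0.11 in the main fit. They also include the le × ts median of −0.0016 with 1 value per transcript, beside 0.0069 in the main fit. With 2 libraries per group and the depth unknown, and with a rule that calls no difference under 2-fold, small differences in the hybrids could not be called. In the main fit of le × ts, large differences of *X. tropicalis* entries were not called either.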

Other observations

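Many *X. laevis* members are the sum of several transcripts, and the entries do not say which subgenome each comes from. Of 68 members 43 had more than 1 *X. laevis* transcript, and 19 of 75 had more than 1 in *X. tropicalis*. In some *X. laevis* members with 2 transcripts the leading one held close to an even share: 50.9% in *atp5a1*, 53.1% in *ndufa10* and 53.4% in *atp5c1*. In others a single transcript held nearly all, with 97.8% in *cox4i2* and 95.1% in *atp5l*. The leading transcript's share also moved between libraries of a group. It was 62.7% and 40.8% in *atp5a1*, 44.1% and 71.6% in *uqcrb*, 46.6% and 76.0% in *ndufs4* and 89.6% and 57.5% in *cox7a2l*, for replicates 1 and 3, whereas in *sdha* it was 59.7% and 59.6%. These genes were chosen after their values were seen.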
